A study of Mus musculus with 9 samples.

Results

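The 8 genes described here encode the surface proteins by which mouse haematopoietic stem cells and multipotent progenitors are sorted: Kit, Ly6a, Slamf1, Thy1, Cd34, Cd48, Flt3 and Cd27. They were chosen by symbol, not by their values, and are 8 of the 38215 genes in the count table. All 8 were among the 14944 genes that passed the filter on low counts. RNA was sequenced from bone marrow of C57BL/6J mice, all of which carried Jak2V617F, an activating mutation of the kinase Jak2 that drives myeloproliferative neoplasms, and had received tamoxifen. The sorted cells lacked lineage markers and bore Sca1 and Kit (the LSK gate), were positive for both GFP and mCherry, and were taken at the terminal time point. The 5 EV mice had the genotype Jak2V617F alone, and the 4 sgZrsr2 mice had the genotype Jak2V617F-sgZrsr2, described in the series' design text as a combination with loss of Zrsr2, a factor of the minor spliceosome. The labels do not expand EV. Age, the promoter of the recombinase and how the marked cells came to be in the mice are not given in the sources used here, and no group without Jak2V617F was analysed here.

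An LSK gate holds long-term stem cells together with several kinds of multipotent progenitor, and the proteins of these genes divide it further. Long-term stem cells display Slamf1 (CD150) and lack Cd48, Flt3 and most Cd34. Cells that leave this state gain Cd34 and Cd48, and either keep Slamf1, as progenitors biased to megakaryocytes and erythroid cells do, or lose it. The lymphoid-primed progenitors are marked by high Flt3 and also carry Cd27, while Thy1 is low on stem cells and lost as Flt3 rises. The question put to the data was whether the mix of these cells, as read from the marker transcripts, differed between sgZrsr2 and EV. In bulk RNA, fewer cells of a type and less RNA per cell cannot be told apart.

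Slamf1 and Cd48 are the pair that separates stem cells from most progenitors, and they are near neighbours in the genome. Cd48 lies at chromosome 1, 171682009 to 171705258, and Slamf1 at chromosome 1, 171767127 to 171801184, both on the plus strand of GRCm38, with 61.9 kb between them. They belong to a cluster of 7 genes of the SLAM family that spans 385 kb. The 250 bases before the RefSeq start of each gene (RefSeq, GRCm38.p6), and of Kit, are shown because Slamf1 and Kit were highest in the same 3 libraries and Cd48 was not. Of the 8 members 6 had a promoter in the RefSeq table. Capitals mark matches on either strand to GATAA (GATA factors), TGTGGT (RUNX factors), TTCNNNGAA (STAT factors), CACGTG (E-box) and the interferon response element.
Slamf1, chr1:171766882-171767131, plus strand: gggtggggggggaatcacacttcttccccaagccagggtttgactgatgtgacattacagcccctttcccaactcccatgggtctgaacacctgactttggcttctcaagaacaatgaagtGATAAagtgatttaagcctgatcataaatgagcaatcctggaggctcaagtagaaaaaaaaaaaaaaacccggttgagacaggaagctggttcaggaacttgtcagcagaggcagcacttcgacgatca
Cd48, chr1:171681742-171681991, plus strand: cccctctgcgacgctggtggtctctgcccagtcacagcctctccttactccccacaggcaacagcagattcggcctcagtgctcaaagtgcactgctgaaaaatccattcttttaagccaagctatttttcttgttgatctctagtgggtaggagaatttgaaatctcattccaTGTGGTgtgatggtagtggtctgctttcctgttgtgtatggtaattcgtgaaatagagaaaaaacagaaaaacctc
Kit, chr5:75574737-75574986, plus strand: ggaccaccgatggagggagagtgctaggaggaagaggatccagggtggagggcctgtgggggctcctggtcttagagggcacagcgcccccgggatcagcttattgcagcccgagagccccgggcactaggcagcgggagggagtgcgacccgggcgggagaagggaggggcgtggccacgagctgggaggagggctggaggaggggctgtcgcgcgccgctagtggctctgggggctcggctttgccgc
The Slamf1 window held 1 match to GATAA, 129 bases before the start, and none to the other 4 motifs. Of 32817 windows of the same length, 22.6% held GATAA. The Cd48 window held 1 match to TGTGGT, 76 bases before the start, and 14% of windows held this motif. The Kit window, with a GC content of 70.8% against 47.2% for Slamf1 and 46% for Cd48, held none of the 5. TTCNNNGAA, CACGTG and the interferon response element were in 7.01%, 6.02% and 2.97% of windows and in none of the 6 members' windows. These are matches of letters only.

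The libraries held 23238264 to 45585531 expected counts. Zrsr2 was lower in all 4 sgZrsr2 libraries (31.7 to 44.4 CPM, read counts scaled to a common library size after TMM normalization) than in all 5 EV libraries (50.6 to 62.2 CPM). In the comparison of sgZrsr2 with EV, edgeR's quasi-likelihood test with Benjamini-Hochberg adjustment called 0% of genes at an adjusted p of 0.05, the limma-voom alternative called 0 and DESeq2 called 16. At an unadjusted p under 0.05 edgeR had 1024 genes, 6.85% of those tested, and in 3.06% of genes the groups did not overlap. EV mouse 5 and sgZrsr2 mice 3 and 5 stood apart from the other 6 libraries in megakaryocyte and erythroid transcripts, and sgZrsr2 mice 1 and 2 were the most alike pair (chi-square per degree of freedom 15.0, against 51.1 or more for the other pairs) although they differed beyond sampling noise. Results that rest on the first 3 are given with and without them. The lineage gate showed in the transcripts, with Cd3e at no more than 0.0873 CPM and Ly6g at no more than 0.0556 CPM in any library.

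No difference between the groups was detected for any of the 8 marker genes. In edgeR's quasi-likelihood test 0 of 8 passed an adjusted p of 0.05, 0 of 8 passed an unadjusted p of 0.05 (against 6.85% of all genes, 3.87% higher and 2.98% lower), and in 0 of 8 were the groups apart (against 3.06%). DESeq2 also had 0 of 8 at an unadjusted p under 0.05, and limma-voom with sample quality weights had 1, Cd48. Over all 14944 genes DESeq2 had 1274 at that threshold and limma-voom with quality weights had 2551. By log2 fold change 5 members were higher and 3 lower with sgZrsr2, and 48.5% of all genes were higher. The median was 0.09 for the members, beside -0.01 over all genes. The adjusted p-values of the members ran from 0.722 to 0.957. Over all 9 libraries the highest was more than double the lowest for 6 of the 8 genes, and Cd34 and Cd48 stayed within 1.32-fold. Within EV the range exceeded 2-fold for 5 genes (Kit, Ly6a, Slamf1, Flt3 and Cd27), and within sgZrsr2 for Thy1 alone.

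**Figure D1:**
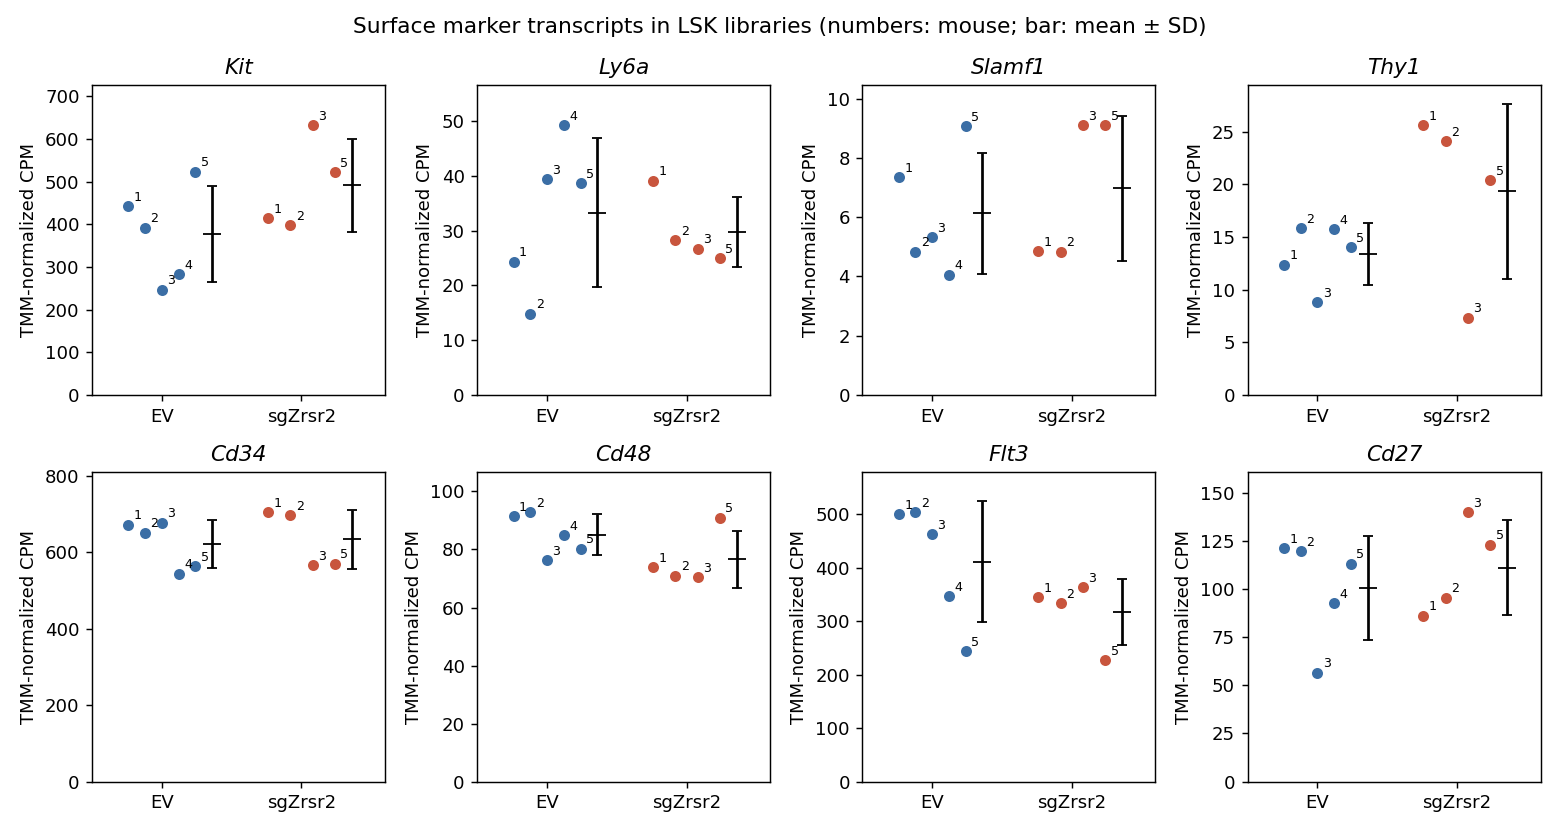
TMM-normalized CPM of the 8 marker genes in each of the 9 libraries, with the mouse number beside each point and the group mean ± SD as a bar (EV n = 5, sgZrsr2 n = 4). The groups overlap in every panel, and Slamf1 reaches 9.07 to 9.10 CPM in EV mouse 5 and sgZrsr2 mice 3 and 5 alone.

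Per kilobase of exon (GENCODE M21), the scale on which genes can be compared, Cd34 had the highest level in all 9 libraries and Slamf1 the lowest. Cd34 had a median over libraries of 89.3 CPM per kb, ahead of Cd48 at 67.5, Flt3 at 56.1, Cd27 at 48.6, Kit at 46.4, Ly6a at 23.5, Thy1 at 5.25 and Slamf1 at 0.866. Thy1 ranged from 2.45 to 8.55 and Slamf1 from 0.660 to 1.48 CPM per kb, so these 2 were apart from each other and from the rest. From Cd34 down to Ly6a the range of each gene over the libraries overlapped that of its neighbour in the order. The lengths count every annotated exon once, so a gene expressed mainly as a short transcript reads too low on this scale.

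Of the 2 genes whose proteins set the gate, Kit encodes the receptor tyrosine kinase for stem cell factor (ENSMUSG00000005672; chromosome 5, 75574916 to 75656722, plus strand). EV mice 1 to 5 gave Kit levels of 442, 392, 247, 283 and 523 CPM. For sgZrsr2 mice 1, 2, 3 and 5 the levels were 414, 398, 632 and 522 CPM. The highest 3 libraries were sgZrsr2 mouse 3, EV mouse 5 and sgZrsr2 mouse 5, and the lowest 2 were EV mice 3 and 4. Group means were 377 ± 113 CPM for EV (SD, n = 5) against 491 ± 109 CPM for sgZrsr2 (SD, n = 4). The log2 fold change of Kit was 0.38 (SE 0.23, 95% interval -0.12 to 0.88; edgeR adjusted p = 0.723), and the two-sided exact permutation p over the 126 splits was 0.190. Leaving out EV mouse 5 gave 0.53, at an unadjusted edgeR p of 0.0349 and an adjusted p of 0.549, while leaving out sgZrsr2 mouse 3 gave 0.24, at an unadjusted p of 0.335. Without all 3 of the highest libraries the log2 fold change of Kit was 0.26, and with the quality weights of limma-voom it was 0.12.

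Ly6a (ENSMUSG00000075602; chromosome 15, 74994878 to 74997634, minus strand) encodes Sca1, a small protein held in the membrane by a lipid anchor and induced by interferons. EV mice 1 to 5 gave 24.3, 14.8, 39.4, 49.3 and 38.7 CPM of Ly6a, and sgZrsr2 mice 1, 2, 3 and 5 gave 39.2, 28.3, 26.7 and 24.99 CPM. EV held both the lowest and the highest library, a 3.33-fold range, although every cell had been sorted for the protein. Means were 33.3 ± 13.6 CPM for EV (SD, n = 5) against 29.8 ± 6.4 CPM for sgZrsr2 (SD, n = 4), a log2 fold change of -0.16 (SE 0.30, 95% interval -0.83 to 0.51; edgeR adjusted p = 0.901). The two-sided exact permutation p for Ly6a was 0.921. Its sign turned without EV mouse 4 (0.0184) and with the quality weights of limma-voom (0.55), so no direction is given.

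Ly6a and Kit went different ways in several libraries. EV mice 3 and 4 had the highest Ly6a of the 9 libraries and the lowest Kit. The log2 ratio of Kit to Ly6a counts for EV mice 1 to 5 was 4.18, 4.72, 2.64, 2.52 and 3.76. The same ratio for sgZrsr2 mice 1, 2, 3 and 5 was 3.40, 3.81, 4.56 and 4.38. Its mean was 3.56 ± 0.96 with EV (SD, n = 5) and 4.04 ± 0.53 with sgZrsr2 (SD, n = 4), a difference of 0.47 that is smaller than the SD in either group. Without EV mouse 5 and sgZrsr2 mice 3 and 5 the difference in this ratio was 0.0890. Ly6a counts were whole numbers in 9 of 9 libraries, as they are where no read is divided between genes, while those of Ly6c1 and Ly6c2 were whole in 0 of 9. The 12 interferon-stimulated genes summed to 178 and 176 CPM in EV mice 3 and 4, near the bottom of the range of 171 to 328 CPM, in the libraries where Ly6a was highest. Ifitm1 and Ifitm3, listed here as stem cell surface genes and also induced by interferons, were highest in EV mouse 4 as Ly6a was, at 834 and 315 CPM against 102 to 288 and 105 to 216 CPM in the other 8 libraries, and EV mouse 3 was second for both (288 and 216 CPM). The part of interferon signalling in the Ly6a level was not tested.

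Among the genes read as stem cell markers, Slamf1 encodes a receptor that binds itself on other cells (ENSMUSG00000015316). EV mice 1 to 5 gave Slamf1 levels of 7.34, 4.84, 5.33, 4.06 and 9.07 CPM. For sgZrsr2 mice 1, 2, 3 and 5 the levels were 4.85, 4.84, 9.10 and 9.10 CPM. The values thus fell near 2 levels in both groups, with 1 EV and 2 sgZrsr2 libraries at the upper one and EV mouse 1 between. They rested on 109 to 374 counts per library, and the exact Poisson 95% intervals of the upper 3 libraries (lowest bound 8.10 CPM) lay above those of all others except EV mouse 1 (6.47 to 8.30 CPM). Such intervals cover counting error only.

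The group means of Slamf1 were 6.13 ± 2.04 CPM for EV (SD, n = 5) against 6.97 ± 2.46 CPM for sgZrsr2 (SD, n = 4). The log2 fold change was 0.19 (SE 0.31, 95% interval -0.49 to 0.87; edgeR adjusted p = 0.883), with a two-sided exact permutation p of 0.508. Without EV mouse 5 and sgZrsr2 mice 3 and 5 it changed sign, to -0.14. The interval leaves room for a level between 0.712 and 1.83 times that of EV.

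The libraries with most Slamf1 were also those with most megakaryocyte and erythroid transcripts. The 12 genes of that list summed to 1016, 1399 and 1539 CPM in EV mouse 5 and sgZrsr2 mice 3 and 5, against 498 to 787 CPM in the other 6. The 3 most abundant genes of the list did not all separate these libraries. Itga2b, the integrin CD41, was at 199, 222 and 319 CPM in them and at 109 to 263 CPM in the others. Apoe, an apolipoprotein, was at 168, 258 and 357 CPM against 102 to 183 CPM, and Car2, a carbonic anhydrase, at 225, 304 and 210 CPM against 93.7 to 197 CPM. The fourth most abundant, Zfpm1, a cofactor of GATA factors, was at 217, 296 and 290 CPM in these 3 libraries and at 85.1 to 127 CPM in the others. Vwf, the von Willebrand factor gene that marks platelet-biased stem cells, was at 53.2, 91.1 and 85.3 CPM against 4.65 to 11.4 CPM. Gata1 was at 24.1, 26.2 and 38.8 CPM against 2.31 to 9.57 CPM. Vwf and Gata1 were named after their values were seen.

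**Figure D2:**
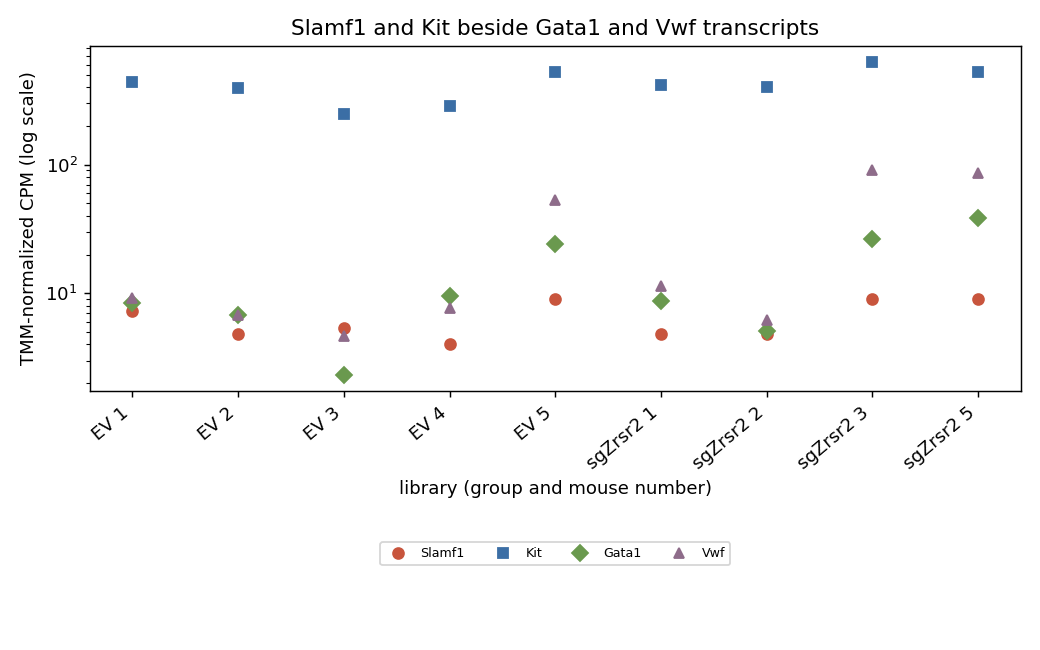
TMM-normalized CPM on a log axis for Slamf1, Kit, Gata1 and Vwf in each of the 9 libraries (x axis: group and mouse number; 1 point per gene and library). All 4 genes have their highest 3 values in EV mouse 5 and sgZrsr2 mice 3 and 5, with Vwf at 53.2 CPM or above there and at 11.4 CPM or below elsewhere.

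Red cell transcripts followed the same 3 libraries, and those of mature neutrophils did not follow all of them. The mature neutrophil list (10 genes) summed to 187 and 221 CPM in EV mouse 5 and sgZrsr2 mouse 3 but to 42.2 CPM in sgZrsr2 mouse 5, against 21.5 to 87.9 CPM in the other 6, and Ly6g was at no more than 0.0556 CPM. The red cell list (5 genes found of 7) summed to 11.4, 48.1 and 9.04 CPM in the 3 libraries and to 0.904 CPM or less in the others. Slamf1 was as high in sgZrsr2 mouse 5, which had little of the neutrophil list, as in sgZrsr2 mouse 3, which had most. The part of these transcripts in the Slamf1 and Kit levels was not tested. Mast cells and basophils are Kit-positive, and their list (9 genes) summed to 109, 81.3 and 157 CPM in the 3 libraries against 39.1 to 93.1 CPM in the others, the most abundant being Cpa3 (13.5 to 44.6 CPM), Prss34 (0 to 58.0 CPM) and Mcpt8 (12.7 to 32.4 CPM). The proteases Cma1, Tpsb2, Mcpt4 and Tpsab1 were at 1.59 CPM or less. All 5 tested genes of the list were higher with sgZrsr2, where 48.5% of all genes were higher. Cpa3, a carboxypeptidase, passed an unadjusted edgeR p of 0.05 (log2 fold change 0.59, adjusted p = 0.714). Without the 3 libraries 1 was higher and 4 lower. In that fit Prss34, at 0 CPM in sgZrsr2 mice 1 and 2, passed the unadjusted edgeR threshold as lower (adjusted p = 0.254). So did 1692 of all 15323 genes, in either direction. The part of mast cells and basophils in the Kit level was not tested.

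Thy1 (ENSMUSG00000032011; chromosome 9, 44043384 to 44048579, plus strand) encodes CD90, a lipid-anchored protein of stem cells, T cells and neurons. Thy1 levels for EV mice 1 to 5 were 12.4, 15.8, 8.79, 15.7 and 14.0 CPM. Those for sgZrsr2 mice 1, 2, 3 and 5 were 25.6, 24.1, 7.35 and 20.4 CPM. Of the sgZrsr2 libraries 3 (mice 1, 2 and 5) lay above every EV library and the remaining one, mouse 3, lay below every EV library. Thy1 had the largest difference of the 8 members, 13.4 ± 2.92 CPM for EV (SD, n = 5) against 19.4 ± 8.30 CPM for sgZrsr2 (SD, n = 4). The log2 fold change was 0.53 (SE 0.32, 95% interval -0.18 to 1.24; edgeR adjusted p = 0.728), higher than that of 94.6% of genes, and the two-sided exact permutation p was 0.349.

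Single libraries moved the size of the Thy1 difference in both directions. Leaving out sgZrsr2 mouse 1 gave a log2 fold change of 0.36, at an unadjusted edgeR p of 0.328. Leaving out sgZrsr2 mouse 2 gave 0.40, at an unadjusted edgeR p of 0.287, and leaving out EV mouse 3 gave 0.41, at 0.242. Without sgZrsr2 mouse 3 the log2 fold change was 0.80, at an unadjusted edgeR p of 0.00301 and an adjusted p of 0.920. With EV mouse 5 and sgZrsr2 mice 3 and 5 all left out it was 0.92, at an unadjusted p of 0.00606 and an adjusted p of 0.339. The exact Poisson 95% interval, which covers counting error and not library preparation, was 6.54 to 8.22 CPM in sgZrsr2 mouse 3 and 23.5 to 27.8 CPM in sgZrsr2 mouse 1. T cell RNA was near 0 in all libraries, with Cd3e, Cd3d, Cd3g and Trac each at 0.0873 CPM or less. Thy1 and Slamf1 did not move together: Thy1 was highest in sgZrsr2 mice 1 and 2, where Slamf1 was at 4.85 and 4.84 CPM.

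The other 4 members are read as markers of multipotent progenitors. Flt3 (ENSMUSG00000042817; chromosome 5, 147330741 to 147400489, minus strand) encodes the receptor for Flt3 ligand, which sustains lymphoid and dendritic progenitors. Flt3 levels for EV mice 1 to 5 were 500.7, 504, 463, 347 and 245 CPM. Those for sgZrsr2 mice 1, 2, 3 and 5 were 345, 334, 363 and 227 CPM. The 3 highest libraries were all EV, and the lowest 2 were EV mouse 5 and sgZrsr2 mouse 5. Means were 412 ± 113 CPM for EV (SD, n = 5) against 317 ± 61.6 CPM for sgZrsr2 (SD, n = 4). The log2 fold change of Flt3 was -0.38 (SE 0.22, 95% interval -0.87 to 0.12; edgeR adjusted p = 0.722), at the 9.92 percentile of all genes, and the two-sided exact permutation p was 0.222.

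The size of the Flt3 difference moved with single libraries. Without sgZrsr2 mouse 5 the log2 fold change was -0.25, at an unadjusted edgeR p of 0.302. Without EV mouse 5, the lowest EV library, it was -0.51, at an unadjusted edgeR p of 0.0162 and an adjusted p of 0.523. With sgZrsr2 mice 3 and 5 left out as well it was -0.41, at an unadjusted p of 0.0418 and an adjusted p of 0.438. Flt3 and Slamf1 were opposite in EV mouse 5 and sgZrsr2 mouse 5, which had the lowest Flt3 and about the highest Slamf1. In sgZrsr2 mouse 3, with Slamf1 as high, Flt3 was the fourth highest of the 9 libraries.

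Cd48 (ENSMUSG00000015355) encodes a lipid-anchored ligand of the receptor Cd244. EV mice 1 to 5 gave 91.4, 92.9, 76.2, 84.9 and 80.3 CPM of Cd48, and sgZrsr2 mice 1, 2, 3 and 5 gave 73.9, 71.0, 70.4 and 90.9 CPM. The 3 lowest libraries were sgZrsr2, and sgZrsr2 mouse 5 lay among the highest EV values. Means were 85.1 ± 7.11 CPM for EV (SD, n = 5) against 76.6 ± 9.70 CPM for sgZrsr2 (SD, n = 4). The log2 fold change of Cd48 was -0.15 (SE 0.11, 95% interval -0.40 to 0.09; edgeR adjusted p = 0.744), with a two-sided exact permutation p of 0.127. Without sgZrsr2 mouse 5 it was -0.25, at an unadjusted edgeR p of 0.0449 and an adjusted p of 0.652. A fall below 0.759 times the EV level lies outside the interval, the narrowest of the 8 members on the log2 scale.

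Cd34 (ENSMUSG00000016494; chromosome 1, 194938821 to 194961292, plus strand) encodes a sialomucin that progenitors gain as they leave the long-term stem cell state. EV mice 1 to 5 gave 672, 651, 677, 544 and 563 CPM of Cd34, and sgZrsr2 mice 1, 2, 3 and 5 gave 705, 697, 566 and 570 CPM. EV mouse 4 was lowest, and the libraries high in Slamf1 (563 to 570 CPM) followed it. Means were 621 ± 63.2 CPM for EV (SD, n = 5) against 634 ± 77.0 CPM for sgZrsr2 (SD, n = 4), a log2 fold change of 0.03 (SE 0.12, 95% interval -0.23 to 0.29; edgeR adjusted p = 0.957). The interval corresponds to 0.850 to 1.23 times the EV level, and the sign of the estimate changed in 6 of 20 alternative fits. Its counts were not whole in any of the 9 libraries, and an antisense transcript, AC162692.1, overlaps it by 5534 bases at 2.71 to 11.3 CPM, so a small part of its reads may have been divided.

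Cd27 (ENSMUSG00000030336; chromosome 6, 125232622 to 125237010, minus strand) encodes a receptor of the tumour necrosis factor family whose ligand is Cd70. In EV mice 1 to 5 there were 121, 119, 56.5, 92.5 and 113 CPM of Cd27, and in sgZrsr2 mice 1, 2, 3 and 5 86.1, 95.4, 139.9 and 123 CPM. EV mouse 3 was lowest for Cd27, as it was for Kit, and sgZrsr2 mouse 3 was highest for both. Means were 101 ± 27.1 CPM for EV (SD, n = 5) against 111 ± 24.7 CPM for sgZrsr2 (SD, n = 4). The log2 fold change of Cd27 was 0.15 (SE 0.23, 95% interval -0.35 to 0.64; edgeR adjusted p = 0.877), with a two-sided exact permutation p of 0.603, and it changed sign without EV mouse 3 (-0.0089). Cd27 lies wholly inside Vamp1 on the other strand, which was at 18.9 to 42.2 CPM. The counts of both genes were whole numbers in 9 of 9 libraries, as they are where no read is divided between genes. No source says that reads were assigned by strand, which leaves the level of Cd27 uncertain.

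**Figure D3:**
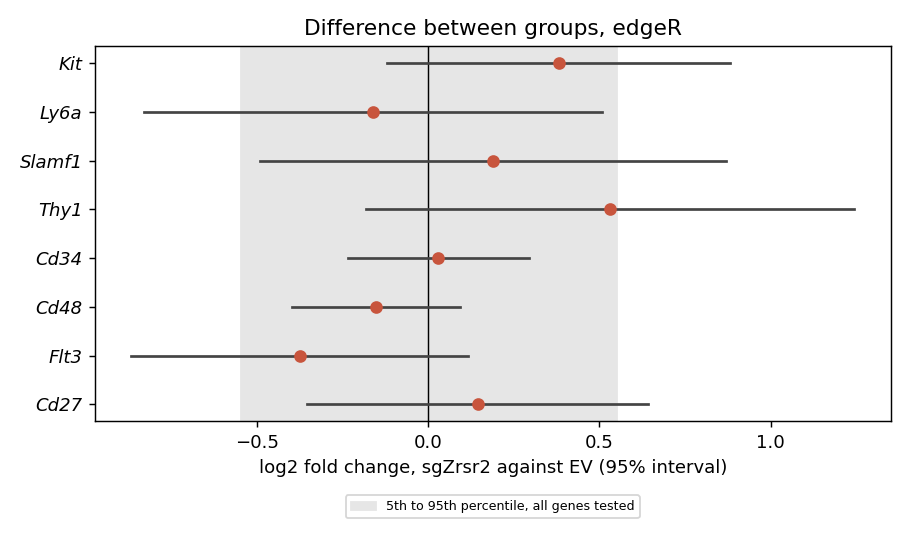
Log2 fold change of sgZrsr2 against EV for the 8 marker genes (points) with 95% intervals (lines) from edgeR, beside the 5th to 95th percentile of all 14944 genes (grey band, -0.55 to 0.55). All 8 intervals include 0 and all 8 points lie inside the band.

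The members differed in how much they varied between mice of 1 group. On the log2 scale the SD within groups was 0.15 for Cd48 and 0.16 for Cd34, smaller than in most genes (11.1 and 14.7 percentile of all genes). It was 0.40 for Kit, 0.40 for Flt3, 0.41 for Cd27, 0.49 for Slamf1, 0.56 for Ly6a and 0.61 for Thy1. Among the genes nearest in level, Kit, Flt3, Cd27, Ly6a and Thy1 lay between the 89.4 and 94.2 percentile of this SD, and Slamf1 at the 60.5 percentile. So the 5 genes varied more between mice than most genes of like level, and Slamf1 about as much as its peers.

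**Figure D4:**
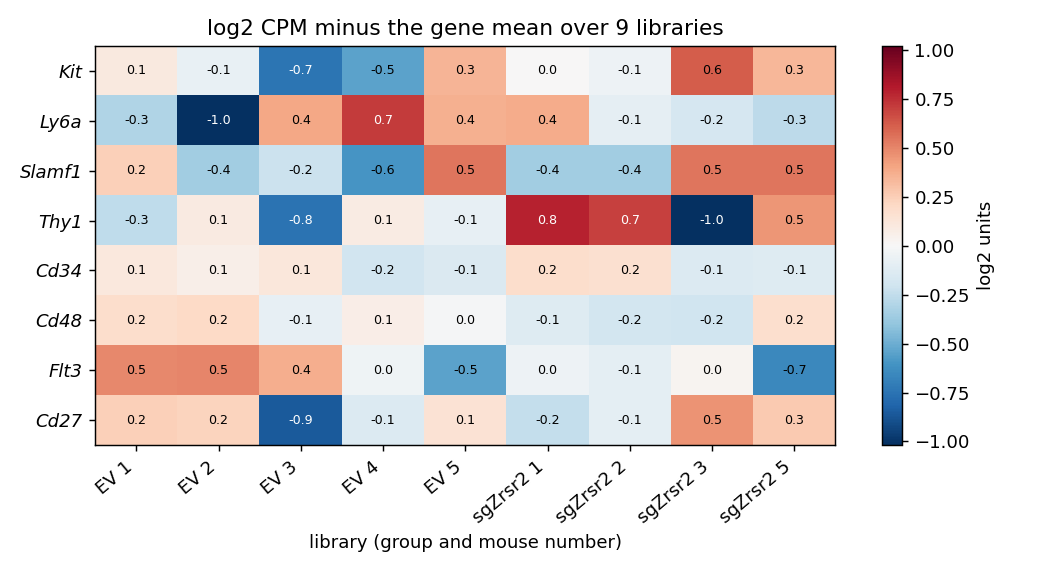
Log2 CPM of each marker gene (rows) minus its mean over the 9 libraries (columns), in log2 units, red for above and blue for below the mean. Cd34 and Cd48 stay near 0, while Ly6a, Thy1, Kit, Slamf1, Flt3 and Cd27 depart in libraries of both groups.

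Ratios of 2 markers within a library do not depend on how libraries are scaled. The balance of Slamf1 to the progenitor markers is given as a description. Progenitors biased to megakaryocytes and erythroid cells also keep Slamf1, and the reading of this balance as a stem cell share was not tested. The log2 ratio of Slamf1 to Cd48 for EV mice 1 to 5 was -3.63, -4.25, -3.82, -4.37 and -3.14. For sgZrsr2 mice 1, 2, 3 and 5 this ratio was -3.91, -3.86, -2.94 and -3.31. The top 3 libraries were again EV mouse 5 and sgZrsr2 mice 3 and 5, and the other 2 sgZrsr2 libraries lay within the EV range. Its mean was -3.84 ± 0.50 with EV (SD, n = 5) and -3.51 ± 0.46 with sgZrsr2 (SD, n = 4), a difference of 0.33 that is smaller than either SD. Without these 3 libraries the difference was 0.13.

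Slamf1 to Flt3 spread more, from -6.69 in EV mouse 2 to -4.63 in sgZrsr2 mouse 5. EV mice 1 to 5 had ratios of -6.08, -6.69, -6.42, -6.39 and -4.74, and sgZrsr2 mice 1, 2, 3 and 5 of -6.14, -6.09, -5.31 and -4.63. The mean was -6.07 ± 0.77 with EV (SD, n = 5) and -5.54 ± 0.72 with sgZrsr2 (SD, n = 4). EV mouse 5 was higher by more than a log2 unit than any other EV library, and the difference between groups was 0.85 without it and 0.22 without sgZrsr2 mouse 5, beside 0.52 with all libraries. Without EV mouse 5 and sgZrsr2 mice 3 and 5 together it was 0.28. Slamf1 to Cd34 had means of -6.71 ± 0.48 with EV (SD, n = 5) and -6.56 ± 0.70 with sgZrsr2 (SD, n = 4). The 3 libraries high in Slamf1 were at -5.95, -5.95 and -5.96 in this ratio, and the other 6 at -6.51 or below.

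**Figure D5:**
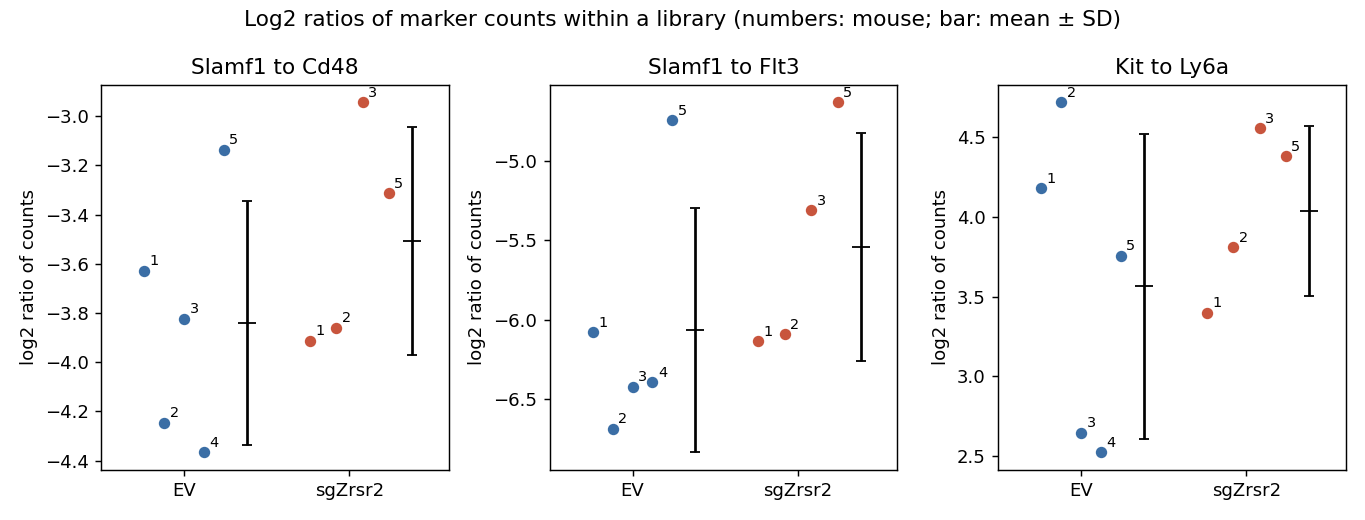
Log2 ratios of the counts of 2 marker genes within each library, with mouse numbers, group means and SD (EV n = 5, sgZrsr2 n = 4). In the Slamf1 to Cd48 and Slamf1 to Flt3 panels EV mouse 5 and sgZrsr2 mice 3 and 5 are the highest, while in the Kit to Ly6a panel EV mice 3 and 4 are the lowest.

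Most ligands of these receptors were not transcribed in the cells themselves. Kitl, the ligand of Kit, was at 0.259 CPM or less in every library, Cd70 at 0.0243 CPM or less, and Cd2, a ligand of Cd48, at 0.657 CPM or less. Flt3l was present, at 10.8 ± 3.03 CPM for EV (SD, n = 5) against 14.2 ± 5.7 CPM for sgZrsr2 (SD, n = 4). Cd244, the receptor for Cd48, was at 37.2 to 54.1 CPM with no difference between groups (log2 fold change -0.12, edgeR adjusted p = 0.818). In the SLAM family list 10 of 11 genes found were tested, 2 higher and 8 lower with sgZrsr2 (median log2 fold change -0.16), and 0 passed an unadjusted p of 0.05. After Cd48 the most abundant by CPM was Cd84, at 46.5 ± 12.1 CPM for EV (SD, n = 5) against 56.6 ± 11.4 CPM for sgZrsr2 (SD, n = 4). Of the 10 Ly6 genes 5 were tested and 0 passed, and Ly6e, at 812 to 1179 CPM, had far more counts than Ly6a.

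Genes of the cell states that the markers divide were read from further lists. With all libraries, 48.5% of all 14944 genes were higher with sgZrsr2, the share to set beside the counts of higher genes below. Of 14 other stem cell surface genes 10 were higher and 4 lower with sgZrsr2 (median 0.25), and 1 passed an unadjusted p of 0.05 in edgeR, Robo4, a receptor that holds stem cells in the marrow (15.9 ± 4.85 CPM for EV, SD, n = 5, against 27.2 ± 8.51 CPM for sgZrsr2, SD, n = 4; adjusted p = 0.714). Without the 3 libraries 7 were higher and 7 lower (median 0.0518), and 2 passed. In that fit 1692 of all 15323 genes passed, beside 1024 of 14944 with all libraries. The median log2 fold change of all genes in the fit without the 3 libraries was -0.03. Procr, the stem cell marker EPCR, was at a mean of 14.6 ± 4.37 CPM in EV (SD, n = 5) and 14.7 ± 5.97 CPM in sgZrsr2 (SD, n = 4). All 12 megakaryocyte and erythroid genes were higher (median 1.07), and 1 passed the unadjusted threshold, Apoe (log2 fold change 0.80, edgeR adjusted p = 0.714). Without EV mouse 5 and sgZrsr2 mice 3 and 5, an alternative added after the values were seen, 11 were tested, 8 were higher and 3 lower (median 0.19), and 0 passed. Of 11 lymphoid-primed genes 2 were higher and 9 lower (median -0.21), and 0 passed. Without the 3 libraries 1 was higher and 10 lower (median -0.80), and 3 passed the unadjusted threshold, as 1692 of all 15323 genes did in that fit. Dntt, the terminal transferase of Flt3-high progenitors, is in this list at 186 ± 88.6 CPM for EV (SD, n = 5) against 101 ± 69.1 CPM for sgZrsr2 (SD, n = 4). Of 12 myeloid-primed genes 5 were higher and 7 lower (median -0.09), and 1, Elane, the neutrophil elastase gene, passed the unadjusted threshold in edgeR (log2 fold change 0.42, adjusted p = 0.714). Without the 3 libraries Elane no longer passed it (0.49, adjusted p = 0.506).

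Markers of other cells were present at different levels. The B cell list (6 genes) summed to 15.3 to 46.0 CPM, the T and NK cell list (8 genes) to 2.46 to 7.95 CPM and the stromal list (6 genes) to 0.534 to 2.71 CPM over the libraries. Of the endothelial list, Pecam1, which progenitors also express, made up most of 120 to 189 CPM. Tek, also listed here as a stem cell surface gene, was at 4.71 to 18.7 CPM. Plvap was at 5.93 CPM or less, Emcn at 5.67 CPM or less, Cdh5 at 4.05 CPM or less and Kdr at 3.14 CPM or less. In the monocyte and macrophage list (7 genes found of 8) 2 were lower at an unadjusted edgeR p under 0.05, Ccr2, a chemokine receptor, at 139 ± 56.0 CPM for EV (SD, n = 5) against 80.4 ± 26.2 CPM for sgZrsr2 (SD, n = 4), and Ly86 (adjusted p = 0.714 for both). Without the 3 libraries 4 were lower at that threshold, in a fit where 1692 of all 15323 genes passed it in either direction. The part of these lists in the marker levels was not tested.

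The transcripts whose levels ran most closely beside those of Slamf1, Cd48 and Flt3 were sought among 9623 genes whose mean reached 10 CPM. For Slamf1 these were B3gnt2, a glycosyltransferase gene (Pearson's r = 0.97, Spearman's rho = 0.85 over 9 libraries), Mmrn1, which encodes multimerin 1 of platelets (r = 0.96, rho = 0.83), and the predicted gene Gm4070 (r = 0.96, rho = 0.97). In the 6 libraries without EV mouse 5 and sgZrsr2 mice 3 and 5, r was 0.93, 0.96 and 0.96. For Cd48 they were Rtn3 (r = 0.95, rho = 0.90), Slc43a3 (r = 0.95, rho = 0.93) and Tpx2, a spindle factor of dividing cells (r = 0.93, rho = 0.97), with r = 0.96, 0.99 and 0.95 in the 6 libraries. For Flt3 they included the transcription factor gene Klf4 (r = 0.92, rho = 0.80) and Ube2a (r = 0.91, rho = 0.97), with r = 0.78 and 0.84 in the 6 libraries. These are the highest of many values over 9 points that share depth and scaling, and are given as a description with no p. The 6 libraries are among the 9 by which the genes were picked, so r in them is not an independent check.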

How the data were processed

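RNA from 9 LSK samples (5 EV, 4 sgZrsr2), 5 ng each, was made into polyadenylated libraries and amplified by PCR without stated molecular identifiers, per the labels' protocols. The authors deposited RSEM expected counts per Ensembl gene, not normalized; cutadapt 1.11, RSEM 1.2.30 and GRCm38 are named in the submitters' processing notes. The aligner, annotation and strandedness are not given in the sources used here. Between 9.78% and 13.3% of values per library were not whole, because RSEM divides reads between genes, and counts were rounded. Low genes were dropped by filterByExpr (a count of 10 and a total of 15 at least); the rest were scaled with TMM factors and compared with edgeR 4.0.16 in R 4.3.3 (quasi-likelihood test, Benjamini-Hochberg adjustment over all 14944 genes); the standard error is the log2 fold change over the square root of F. Single genes were compared by two-sided exact permutation over 126 splits of log2 CPM (prior count 2), where the smallest p possible is 0.0159. The fit was tested on simulated counts.

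The members and lists were chosen with earlier results of these data known. The rule for named genes was: all members and Zrsr2, at most 4 genes of each other list, those of highest mean CPM, and the 3 genes most alike to Slamf1, Cd48 and Flt3; Vwf, Gata1, Robo4, Procr, Dntt, Elane, Ly86, Cdh5, Kdr and the marker genes given only by a maximum were chosen after their values were seen. Of the genes most alike to Flt3, 1 is not reported here. Lists were written from general knowledge; their counts without EV mouse 5 and sgZrsr2 mice 3 and 5 were added after seeing the data. Alternatives were RLE, upper-quartile and no scaling factors, other filters, a prior count of 0.5, DESeq2 1.42.0, limma 3.58.1 voom with quality weights, the mouse number as a block, unrounded counts, sgZrsr2 mice 1 and 2 averaged, and libraries left out. The labels give the mice as separate samples and name no batch. Sequences are from RefSeq (GRCm38.p6).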

Additional observations from a re-analysis of the deposited data

Results flagged for a closer look

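Cd48 in sgZrsr2 mouse 5, at 90.9 CPM, lay far from the other 3 sgZrsr2 libraries at 70.4 to 73.9 CPM, with a gap of 0.831 of the range of the group. Of 24 sets of values examined (8 genes and 4 ratios in each group) this 1 stood out, where chance gives about 1.2.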

How the results depend on the processing

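The number of genes past the adjusted threshold was 0 in edgeR and in 9 of the 11 alternatives that kept or jointly left out libraries; it was 16 with DESeq2 and 1 with sgZrsr2 mice 1 and 2 averaged. The number of members at an unadjusted p under 0.05 was 0 in the main comparison, beside 1024 of all 14944 genes. It was 1 with limma-voom quality weights (Cd48, beside 2551 of all 14944 genes). With the mouse number as a replicate block it was 1 (Flt3, beside 341 of all 14944 genes). Without EV mouse 5 and sgZrsr2 mice 3 and 5 together it was 2 (Flt3 and Thy1, beside 1692 of all 15323 genes). When each library was left out it was 0 to 2, beside 609 to 1292 of all genes. The labels do not say that the mouse numbers pair the mice. Deviations of mice with the same number correlated at -0.23, -0.09, -0.40 and 0.37 for mice 1, 2, 3 and 5. These values cannot settle whether a number marks anything shared, such as a litter or day.

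Kit, Thy1, Flt3 and Cd48 kept their direction in all 20 alternatives. Ly6a turned to 0.55 with quality weights, 0.10 with the block, 0.0802 without the 3 libraries and 0.0184 without EV mouse 4 (-0.35 to 0.0184 when 1 library was left out). Cd27 turned to -0.19 with quality weights and -0.0893 without the 3 libraries, and ran from -0.0089 to 0.24 when 1 library was left out. Cd34 turned to -0.0185 with the block and -0.0262 with mice 1 and 2 averaged, and ran from -0.0308 to 0.0806 when 1 library was left out. Slamf1 turned to -0.14 without the 3 libraries. The difference in the ratio of Slamf1 to Cd34 turned from 0.15 to -0.27 without the 3 libraries and ran from -0.0548 to 0.35 when 1 library was left out. The cause was not tested. At 109 to 374 counts Slamf1 is the member that depth limits most.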
